A study of Mus musculus with 4 samples.

Results

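The genes described here mark microglia, the resident macrophages of the brain, and include the C1q chains that start the classical complement pathway. They are Csf1r, Cx3cr1, C1qa, C1qb, C1qc, Tyrobp, Ctss, Laptm5 and Cd68, chosen by name for their known role, and the array annotation assigned them 13 probe sets (sets of short oligonucleotides that read a transcript) out of 12422. All 9 genes were measured, among 8251 genes that had a probe set of their own. RNA from 4 mouse hippocampus samples was hybridized to 1 Affymetrix array per sample, with total RNA as the starting material. The labels put all samples in a single group and give no strain, genotype, treatment, sex or age, so the comparison made here is between replicate samples, called 1 to 4. Nothing states that the samples came from separate animals, so part of their spread may be technical.

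Microglia depend on signals through CSF1R, the receptor for CSF1 and IL-34, and sense neurons through CX3CR1, the receptor for the neuronal chemokine fractalkine. They are the main source of C1q in the healthy brain. C1q is built from A, B and C chains, binds tagged surfaces and synapses, and sets off the cleavage steps that lead to complement C3. Engulfed material is broken down in lysosomes, where cathepsin S (Ctss), CD68 and LAPTM5 reside, and TYROBP (DAP12) passes on activating signals from receptors such as TREM2.

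The C1q genes lie side by side on chromosome 4 of the mouse RefSeq annotation (GRCm38.p6), in the order C1qb, C1qc, C1qa, with no other annotated gene between them. The promoter windows of C1qb and C1qc are shown because these neighbours encode chains of the same protein and differed in their spread between samples. That difference was not tested, nor was any relation of it to these sequences. Each window runs from 250 bases before to 50 bases after the annotated start, on the minus strand, at chr4:136886151-136886450 for C1qb and chr4:136892865-136893164 for C1qc. Capitals mark matches to GAGGAA, on either strand (TTCCTC is its reverse complement), the core of the element bound by PU.1, a transcription factor of the macrophage lineage.
C1qb: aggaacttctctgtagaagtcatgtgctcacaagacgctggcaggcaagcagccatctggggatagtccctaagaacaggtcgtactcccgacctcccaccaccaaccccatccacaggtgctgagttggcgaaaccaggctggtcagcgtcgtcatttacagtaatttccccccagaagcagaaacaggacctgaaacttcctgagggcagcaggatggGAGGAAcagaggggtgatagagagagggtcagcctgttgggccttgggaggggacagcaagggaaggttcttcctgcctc
C1qc: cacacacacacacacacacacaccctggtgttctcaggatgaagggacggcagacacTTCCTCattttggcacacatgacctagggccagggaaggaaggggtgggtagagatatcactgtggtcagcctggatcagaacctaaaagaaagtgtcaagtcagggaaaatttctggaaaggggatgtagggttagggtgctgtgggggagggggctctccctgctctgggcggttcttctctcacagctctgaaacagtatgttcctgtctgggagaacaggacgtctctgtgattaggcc

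The match in the C1qb window began 30 bases before the start, at position -30, and that in the C1qc window at position -193. RefSeq windows were on hand for 6 of the 9 genes, and 5 of these 6 held at least 1 match, against 28.3% of 32851 windows of the same length in the genome-wide table. The matches are letters in a window and not measured binding sites. Cx3cr1 was the gene of the 6 with no match, and C1qa, Tyrobp and Csf1r were not searched. Both matches of Ctss and of Cd68 and the match of Laptm5 are shown with their flanks, since these genes encode the lysosomal proteins of the group. The Ctss and Laptm5 stretches are on the plus strand, at chr3:95526610-95526639, chr3:95526774-95526803 and chr4:130913266-130913295. The Cd68 stretches are on the minus strand, at chr11:69666378-69666407 and chr11:69666124-69666153.
Ctss, position -164: gacacagggttgGAGGAAaactttgtcctg
Ctss, position 0: atgaaagttcacTTCCTCattgtggatgct
Laptm5, position -38: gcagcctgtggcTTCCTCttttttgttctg
Cd68, position -225: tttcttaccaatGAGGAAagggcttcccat
Cd68, position 29: gaggcttttcatTTCCTCttccaagagaag

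Signals are given in quantile normalized array units. Values under the 25th percentile of all values (27.7 units) were set to that floor before taking log2, and a probe set was analysed if its mean exceeded that of the median probe set. Of the 13 probe sets of the group, 12 passed this filter. The probe set with the highest mean represents a gene, and for all 9 genes it was above the floor in all 4 samples. Signals of different probe sets are not compared, since probes differ in how strongly they bind. The arrays alike had a trimmed mean of 250.1 deposited units, and RNA integrity can be read from control transcripts, whose 3' over 5' signal peaked in sample 4 for Actb (1.84, 1.64, 1.51 and 2.03 in samples 1 to 4) and for Gapdh (0.887, 0.864, 0.981 and 1.15). The hippocampal tissue showed neuronal transcripts, with 12 of 12 measured genes of the neuron list in the analysed range. Over all genes with a probe set of their own, this held for 4839 of 8251.

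Microglial genes differed between the samples by 1.22-fold (C1qc) to 2.03-fold (C1qb). Of the 9 genes, 0 passed the test of a variance above the intensity trend (limma, one-sided F test over 6211 probe sets with Benjamini-Hochberg adjustment, adjusted p from 0.936 to 0.996 over the 12 analysed probe sets). Over all analysed probe sets the same rule called 0%, although the widest range of an analysed gene was 4.78 log2 units, so a probe set that was not called is not shown to be steady. At an unadjusted p under 0.05, the test marked 0 of the 12 probe sets, against 5.86% of all analysed probe sets. Their ranges had a median of 0.62 log2 units, or 1.53-fold, against 0.51 log2 units, or 1.42-fold, over all 4839 analysed genes. A range of 2-fold or more occurred in 1 of the 9 genes, C1qb, against 12.9% of analysed genes. The SD of a gene ranged from 0.615 times the trend for C1qc to 1.76 times for C1qb. It was above the trend for 4 of the 9 genes, and the same share over all analysed genes was not computed.

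**Figure D1:**
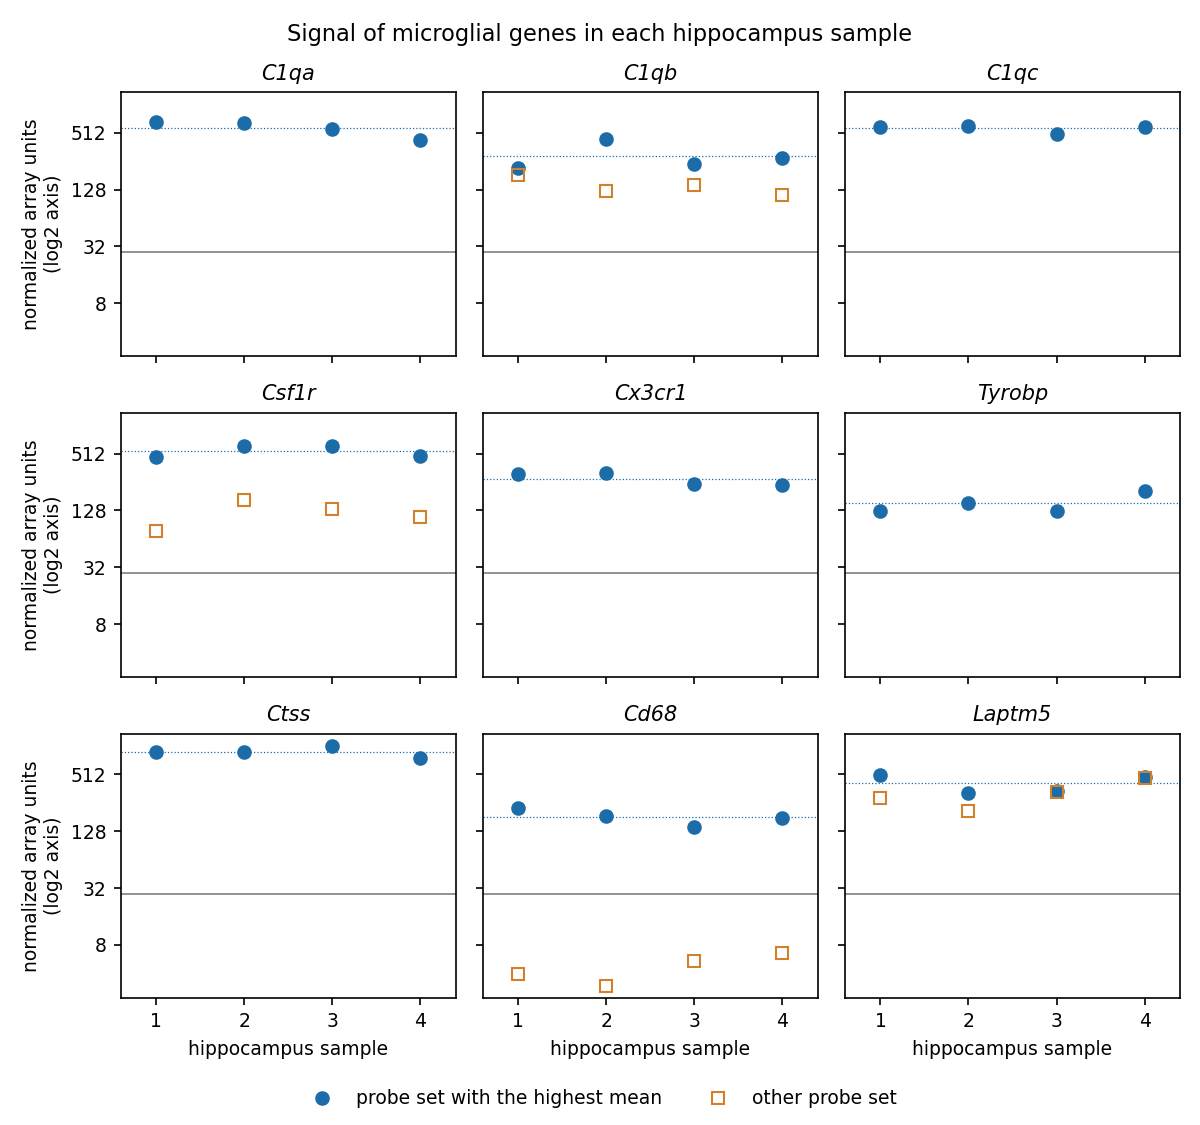
Signal of the 9 genes in hippocampus samples 1 to 4, in normalized array units on a log2 axis. Filled circles show the probe set with the highest mean, open squares any other probe set, the dotted line the mean of the filled circles and the grey line the floor of 27.7 units. C1qc stayed between 503 and 611 units, C1qb reached 436 units in sample 2, and the second probe set of Cd68 lay under the floor in all 4 samples.

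The C1q chains did not follow a common order over the samples. C1qa, the A chain, measured 665, 658, 564 and 434 units over samples 1 to 4 and averaged 580 ± 108 (SD, n = 4). It was lowest in sample 4, where the 3' over 5' signal of both control transcripts peaked, with a deviation of -0.53 log2 units from the mean of the others. Without sample 4 its range was 0.24 in place of 0.62 log2 units, and the part of RNA quality in this value was not tested.

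C1qb, the B chain, gave 215, 436, 242 and 278 units, with a mean of 293 ± 99.2 (SD, n = 4). Sample 2 was high, with a deviation of 0.84 log2 units, and the other samples lay close to one another. The range of C1qb, 2.03-fold, was exceeded by 12.2% of analysed genes, and it was 0.38 log2 units without sample 2 in place of 1.02. A second C1qb probe set, 162276_i_at, gave 181, 124, 143 and 112 units and put sample 1 highest, with a deviation of -0.21 in sample 2. The high value of sample 2 therefore rests on probe set 96020_at alone. The suffix i marks, in the naming used by the manufacturer, a probe set with fewer probes than usual.

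C1qc, the C chain, was the steadiest of the 9 genes. It gave 596, 611, 503 and 594 units, with a mean of 576 ± 49.4 (SD, n = 4). Its range of 0.28 log2 units, or 1.22-fold, was exceeded by 82.2% of analysed genes. Sample 3 was the low one, and without it the range was 0.04 log2 units. In sample 4, where C1qa deviated by -0.53, C1qb and C1qc deviated by -0.03 and 0.07. The SD was 1.37 times the trend for C1qa, 1.76 times for C1qb and 0.615 times for C1qc, with none called (limma, adjusted p of 0.994, 0.975 and 0.996 in that order), and the difference between the chains was not tested.

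The analysed genes closest to the mean pattern of the C1q chains were Stk24, Tug1, Gm13205, Fastk and Shmt2. Likeness was the root mean square difference of centred log2 values over the 4 samples, and it was 0.019, 0.028, 0.032, 0.038 and 0.039 for these genes. That mean pattern was -0.04, 0.31, -0.14 and -0.12 log2 units in samples 1 to 4, and its high value in sample 2 came mainly from C1qb. Of 4830 genes compared, 121 lay within 0.1 log2 units of it, so that 4 samples single out no gene by this measure.

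The probe sets that represent the receptors of the group had ranges under the median of 1.42-fold over all analysed genes. Csf1r measured 475, 615, 613 and 485 units over samples 1 to 4, averaging 547 ± 77.2 (SD, n = 4), higher in samples 2 and 3 than in samples 1 and 4, over a range of 1.29-fold. Its second probe set, 161832_r_at, gave 78.0, 164, 133 and 109 units, also with samples 2 and 3 highest, over a wider range of 2.10-fold. Both probe sets thus placed sample 1 lowest and sample 2 highest, the only gene of the group with a second analysed probe set for which this held. Cx3cr1 gave 308, 320, 244 and 236 units (277 ± 42.8, SD, n = 4). Samples 1 and 2 were above samples 3 and 4, over a range of 1.35-fold, which 59.5% of analysed genes exceeded.

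Fractalkine comes from neurons and CSF1 from several cell types of the brain. Fractalkine (Cx3cl1) gave 6354, 5705, 5337 and 5253 units in samples 1 to 4, a range of 1.21-fold. Like its receptor it was higher in samples 1 and 2 than in samples 3 and 4, a description over 4 samples that supports no relation. Csf1 gave 233, 258, 280 and 238 units, a range of 1.20-fold, and like Csf1r it was higher in samples 2 and 3. Il34 was not analysed here. Cd47, a surface protein that restrains phagocytosis, was high in sample 4 (1452, 1341, 1414 and 2413 units). Of the 6 genes of the list of CSF1, CX3C and CD200 signals, 0 passed the variance test (limma), 0 had an unadjusted p under 0.05, and 0 had a range of at least 2-fold. Their median deviations were -0.13, 0.04, -0.06 and -0.09 log2 units in samples 1 to 4.

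Tyrobp, the signalling adaptor, gave 126, 154, 127 and 207 units, with a mean of 153 ± 37.9 (SD, n = 4). Sample 4 was highest, with a deviation of 0.62 log2 units, and without it the range was 0.29 in place of 0.72 log2 units. The range of 1.64-fold was exceeded by 28.4% of analysed genes.

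Among the lysosomal members, Ctss, the protease that trims the invariant chain for antigen presentation, gave 890, 890, 1033 and 755 units (892 ± 113, SD, n = 4). It was highest in sample 3 and lowest in sample 4. Cd68, a heavily glycosylated membrane protein of macrophage lysosomes, gave 223, 187, 141 and 176 units (182 ± 33.5, SD, n = 4), highest in sample 1 and lowest in sample 3. The second Cd68 probe set, 162173_i_at, gave 2.95 to 6.58 units and was at the floor in all 4 samples, so it has no order. The order given for Cd68 therefore rests on probe set 103016_s_at alone. Laptm5, a lysosomal membrane protein of blood-derived and microglial cells, gave 507, 326, 340 and 481 units (414 ± 93.5, SD, n = 4). Samples 1 and 4 were above samples 2 and 3. Its second probe set, 161819_f_at, gave 285, 211, 331 and 473 units, with sample 4 highest and sample 2 again lowest, and its range of 2.24-fold was the widest of the 12 analysed probe sets. The suffix f marks probes shared by a family of sequences, and r a set chosen under relaxed rules.

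**Figure D2:**
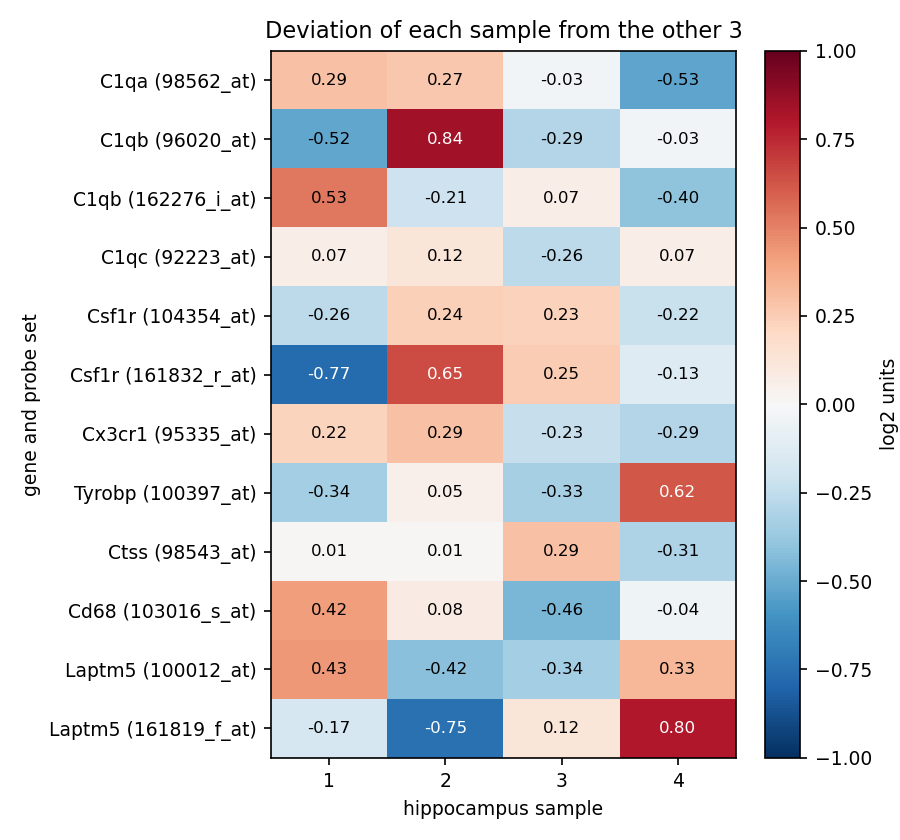
Deviation of each sample from the mean of the other 3, in log2 units, for the 12 analysed probe sets of the 9 genes, with samples in columns and red for higher. No column is red or blue throughout, and the probe sets of C1qb have opposite signs in samples 1, 2 and 3.

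No sample was high or low in the whole group. In sample 1, 6 of the 9 genes exceeded the average of the other samples, against 51.3% of analysed genes. In sample 2 this held for 8 of 9, against 50.7%, and in sample 3 for 2 of 9, against 51.4%. In sample 4 it held for 3 of 9, against 52.2%. The median deviation of the 9 genes was 0.07, 0.12, -0.26 and -0.04 log2 units in samples 1 to 4, and over all analysed genes it was 0.01, 0.00, 0.01 and 0.02. With arrays scaled to a common median, which moved the median of all analysed genes to -0.09 in sample 2 and 0.11 in sample 4, the 9 genes gave 0.02 in both of these samples. The low value in sample 3 was -0.27 with that scaling. It was -0.11 when the median over the probe sets of a gene was used, which left Cd68 out. Each sample was the highest for at least 1 of the 9 genes, and each was the lowest for at least 1. In such bulk tissue, fewer microglia and less RNA per cell cannot be told apart.

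The largest median absolute difference of the 9 genes between a pair of samples was 0.42 log2 units, for samples 2 and 4, against 0.26 over all analysed genes. The smallest was 0.24, for samples 1 and 3, against 0.20. The pair of samples 1 and 2 was the only pair with a 2-fold difference in any of the 9 genes, and that gene was C1qb, counting only the probe set that represents each gene. Over the 12 analysed probe sets, 3 had a range of at least 2-fold, the others being the second probe sets of Csf1r and Laptm5. The matching shares, per pair of samples over all analysed genes and over all analysed probe sets, were not computed.

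**Figure D3:**
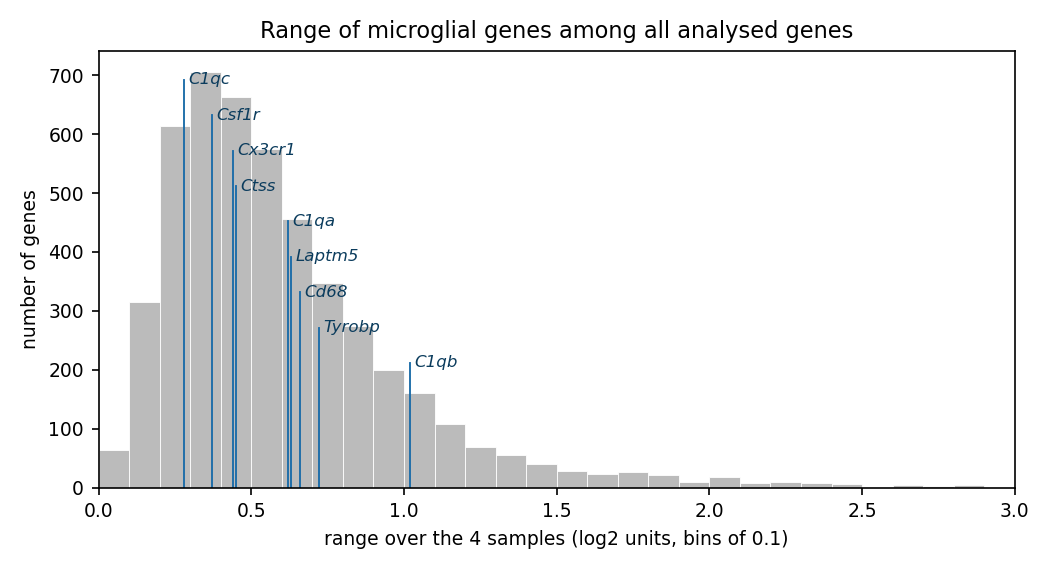
Number of analysed genes (bars, bins of 0.1) by their range over the 4 samples in log2 units, with blue lines at the range of each of the 9 genes. C1qc at 0.28 and C1qb at 1.02 bound the group. The axis ends at 3, and the line heights only separate the names.

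Other microglial and macrophage genes gave no common direction either. Of 45 such genes listed, 35 had a probe set of their own and 12 were analysed. The variance test called 0 of the 12 (limma, 2 at an unadjusted p under 0.05, against 5.86% of all analysed probe sets). A range of at least 2-fold occurred in 4, against 12.9% of analysed genes. The median deviations of the 12 genes were -0.27, 0.06, 0.11 and 0.05 log2 units in samples 1 to 4. Above the mean of the other samples were 3, 7, 8 and 8 genes, against 51.3%, 50.7%, 51.4% and 52.2% of analysed genes. The low median of sample 1 was not shared by the 9 genes, of which 6 exceeded their average over the other samples there. Coro1a, an actin regulator of leukocytes, gave 444 to 493 units. Ly86, the partner of the receptor RP105, gave 135, 89.0, 160 and 90.8 units, and Vav1, an exchange factor of blood cell signalling, ranged most of the 12 analysed genes, with 56.0, 212, 238 and 43.1 units.

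The other 23 genes of that list had a mean too low for analysis, and 7 of them, among them Ptprc (CD45) and Lyz2, were at the floor in all 4 samples. The microglial markers Aif1 (18.9, 45.3, 50.9 and 23.3 units) and Itgam (62.3, 18.4, 20.2 and 19.7 units) were under the floor in 2 and 3 of the 4 samples. Spi1, which encodes PU.1, gave 60.9, 111, 134 and 77.7 units, also too low for analysis. Signals this low may be background, and P2ry12, Tmem119 and Trem2 were not analysed here.

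Few other complement genes had a signal high enough to follow, and C1s1, C3, C4a and C4b had no probe set of their own. Of 28 listed, 19 had a probe set of their own and 3 were analysed, namely C5ar1, the receptor for C5a, Cd59a, an inhibitor of the membrane attack complex, and clusterin (Clu). None of the 3 passed the variance test (limma, 0 at an unadjusted p under 0.05). C5ar1 gave 134, 188, 135 and 181 units, and Cd59a, with the widest range at 2.49-fold, gave 152, 61.3, 116 and 111 units. Clu gave 2938, 3727, 3550 and 2938 units. The median deviations of the 3 genes were -0.21, 0.25, 0.16 and 0.11 log2 units in samples 1 to 4. Among the 16 with a low mean, the C1 inhibitor gene Serping1 gave 121, 98.9, 61.2 and 119 units and the C3a receptor gene C3ar1 gave 51.9, 74.5, 65.2 and 87.0 units, while Hc and Cfi were at the floor in all 4 samples.

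Lysosomal genes, which neurons and other cells express as well, were measured more fully. Of 27 listed, 19 were analysed, with median deviations of 0.09, 0.05, -0.00 and -0.06 log2 units in samples 1 to 4. The variance test called 0 of the 19 (limma, 1 at an unadjusted p under 0.05, against 5.86% of all analysed probe sets). In sample 1, 15 of the 19 exceeded the average of the other samples, against 51.3% of analysed genes. In sample 4, 5 of the 19 did, against 52.2%. Ctsb, a cysteine protease like Ctss, gave 2145 to 2328 units, and Ctsa gave 578, 438, 462 and 410 units. Glb1, lysosomal beta-galactosidase, had the widest range of the 19 analysed genes, with 178, 156, 105 and 285 units.

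The genes of the group are also expressed by macrophages at brain borders and by blood monocytes. Of 4 border macrophage genes measured, 0 were in the analysed range, with signals of 8.22 to 149 units, and Mrc1 gave 47.0, 8.95, 17.1 and 44.6 units. Of 13 neutrophil and monocyte genes, 4 were analysed, with median deviations of -0.27, -0.13, 0.06 and 0.35 log2 units, and their summed signal was 890, 1020, 1011 and 1409 units in samples 1 to 4. S100a8, S100a9 and Ngp were too low for analysis. The 3 analysed lymphocyte genes, of 13 measured, summed to 418, 408, 330 and 365 units, with median deviations of 0.30, 0.19, -0.41 and 0.01. Red cell genes had the widest median range of the lists, 1.79 log2 units, with median deviations of 0.83, 0.22, -1.25 and 0.06. Summed signals of these genes were 14231, 11126, 4652 and 8739 units, least in sample 3. Of the 4 analysed red cell genes, Klf1 went the other way and was highest in sample 3 (107, 80.8, 127 and 112 units). In sample 3, 7 of the 9 microglial genes lay under their average over samples 1, 2 and 4, and 2 of the 9 had their lowest value. The part of blood in the microglial values was not tested.

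**Figure D4:**
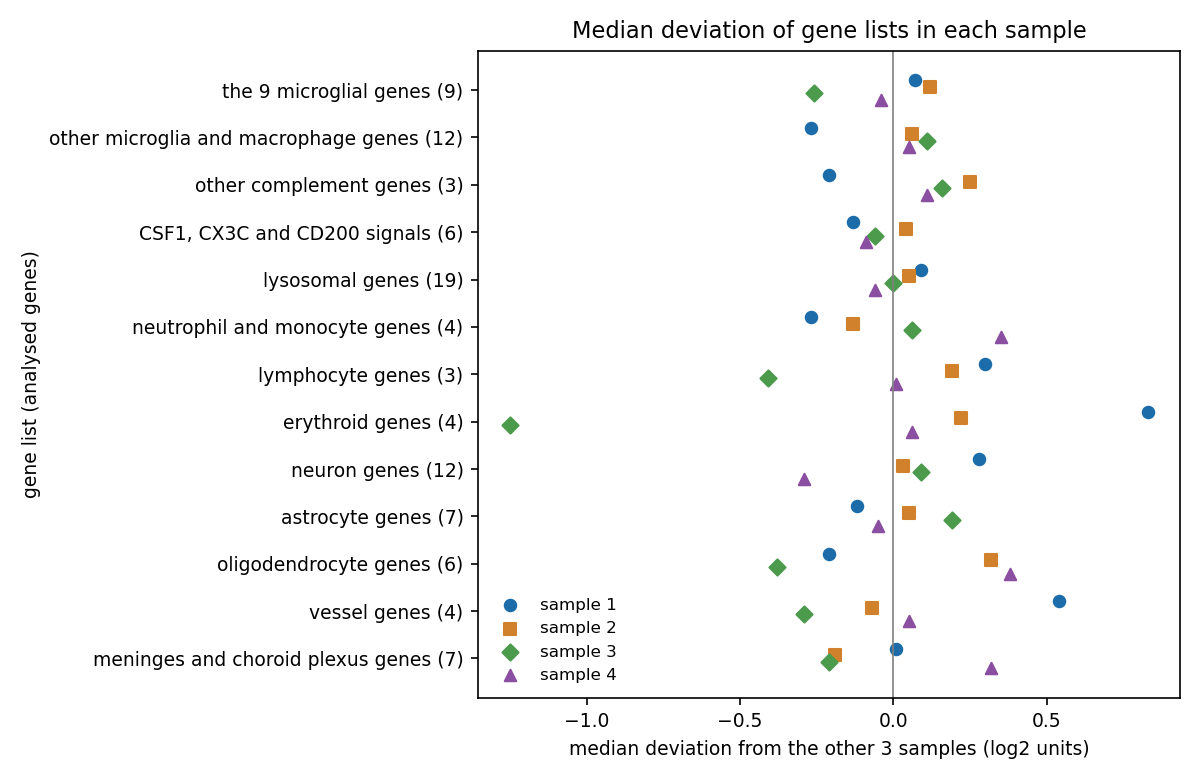
Median deviation of each gene list in each sample from the other 3 samples, in log2 units, with the number of analysed genes in brackets. The 9 microglial genes lie between -0.26 and 0.12, a narrower span than that of the 4 erythroid genes, from -1.25 to 0.83. Narrower still are the astrocyte list, from -0.12 to 0.19, the lysosomal list, from -0.06 to 0.09, and the CSF1, CX3C and CD200 list, from -0.13 to 0.04.

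Other cell types of the tissue had their own order of samples. The neuron list gave 0.28, 0.03, 0.09 and -0.29 log2 units in samples 1 to 4 over 12 genes, and the astrocyte list gave -0.12, 0.05, 0.19 and -0.05 over 7 genes. The oligodendrocyte list gave -0.21, 0.32, -0.38 and 0.38 over 6 genes, the vessel list 0.54, -0.07, -0.29 and 0.05 over 4 genes, and the list of meninges and choroid plexus 0.01, -0.19, -0.21 and 0.32 over 7 genes. Past the adjusted variance test (limma) were 0 genes of any of these lists. At an unadjusted p under 0.05 there were 5, 2, 0, 0 and 2, in the order given, against 5.86% of all analysed probe sets. Sample 3 had the lowest median for the oligodendrocyte, vessel, lymphocyte and red cell lists, for the 9 microglial genes, and for meninges and choroid plexus, but not for neurons or astrocytes. With median scaling, sample 2 was lower than sample 3 for meninges and choroid plexus (-0.26 and -0.22). For the microglial genes, sample 4 was lower than sample 3 with the median over probe sets, which left Cd68 out (-0.19 and -0.11 over 8 genes). The same held for the 9 genes without sample 1 (-0.23 and -0.22). Whether these lists differ from one another was not tested.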

How the data were processed

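The deposited table holds 1 intensity per probe set and array on a linear scale, and the trimmed means show that arrays had been scaled before it was deposited by the authors. How these intensities were computed is not given in the sources used here. Control probe sets (66 of 12488) were left out, and quantile normalization used limma 3.58.1 under R 4.3.3. Values were floored at the 25th percentile (27.7 units) and taken to log2. The floor understates ranges at low signal, and detection calls were not used. Of 12422 probe sets, 10833 had 1 gene symbol in the array annotation, 396 several and 1193 none, and symbols were updated through the RefSeq table of GRCm38.p6. No probe set with several symbols held one of the 9 genes. Excess variance was tested for the 6211 probe sets whose mean exceeded that of the median probe set, against a robust intensity trend with limma, by an F test, one-sided, adjusted after Benjamini-Hochberg at 0.05. The test was tested on simulated data with known changes, and it calls only wide differences at this number of arrays. All 4 samples form 1 group, their numbers follow deposit order and pair none, and precision is limited by the number of arrays. A deviation is the log2 value in 1 sample less the average of the others.

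The genes, the lists and the tests were chosen with earlier results of these data known. Genes outside the group were named by a rule, namely the first 2 analysed genes and the analysed gene with the widest range of a list, and the 5 genes closest to the C1q pattern, and the text gives these for lists close to microglial biology. Clu, Serping1, C3ar1, Hc, Cfi, Aif1, Itgam, Spi1, Ptprc, Lyz2 and Mrc1 were named for their role or their low signal, some with values in view. Alternatives covered scaling, the floor, the filter, the choice of probe set, the variance trend and each sample left out.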

Additional observations from a re-analysis of the deposited data

Results flagged for a closer look

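In 2 of 48 probe sets examined, 1 sample lay far from the other 3. The measure is the gap to the nearest sample divided by the whole range on the log2 scale, and it is set against Dixon's critical value for 4 samples. Chance flags about 1 in 20 such sets of values. For C1qc the ratio was 0.854, since sample 3 (503 units) lay below 596, 611 and 594 units in samples 1, 2 and 4. The distance itself was small, and the whole range was 1.22-fold. For Cd47 the ratio was 0.865, since sample 4 (2413 units) lay above 1452, 1341 and 1414 units in samples 1 to 3.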

How the results depend on the processing

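No paired analysis was possible because the labels give 1 group only. Under every alternative run, 0 of the 9 genes passed the variance test, with a smallest adjusted p of 0.892. Over all probe sets or genes tested, 0 were called in each of these settings too, so this count cannot set the group apart. The count of genes with a range of at least 2-fold, 1 as reported, was 0 with arrays scaled to a common median and 0 with the median over the probe sets of a gene, and 0 to 1 with each sample left out. It was 0 without sample 1 or without sample 2, the lowest and highest samples of C1qb. With the median over probe sets, which left Cd68 out because its second probe set lies at the floor, the median deviation of the genes was -0.11 in sample 3 and -0.19 in sample 4, against -0.26 and -0.04 as reported. With each sample left out it ranged from -0.23 to -0.01 in sample 4, with -0.23 without sample 1. The cause of these shifts was not tested. Medians in samples 1 and 2 moved by less than the SD of 0.125 log2 units between samples under the alternatives run. That SD is larger than these medians (0.07 and 0.12 as reported), so the rule cannot show them to be stable. With arrays scaled to a common median, the median in sample 2 was 0.02. With 4 arrays and no detection calls, small differences and low signals are not resolved.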

Other observations

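Several myeloid genes outside the 9 had wide ranges at low signal, and they were picked after their values had been seen. Irf8, a transcription factor of microglia and other myeloid cells, gave 161, 44.1, 120 and 42.7 units in samples 1 to 4. Slc2a5, a fructose transporter enriched in microglia, gave 96.5, 20.9, 157 and 19.9 units, and the scavenger receptor gene Msr1 gave 61.2, 20.7, 68.5 and 47.7 units. Each of these was higher in samples 1 and 3 than in samples 2 and 4, as were Ly86 and the lipase gene Lpl (392, 118, 349 and 167 units). Other genes of the same list had the opposite order, higher in samples 2 and 4. Among them were Syk (336, 459, 299 and 455 units) and Inpp5d (113, 205, 92.0 and 163 units), both analysed, and Cd86 and Cybb, with a lower mean. The list thus had no shared order. Csf1r and Vav1 were instead higher in samples 2 and 3, and Mpeg1, a pore-forming protein of macrophages, was lowest in sample 1 (122, 248, 235 and 325 units). Lcp1, an actin-bundling protein of leukocytes, gave 142, 55.2, 25.1 and 90.9 units. Irf8, Slc2a5, Msr1 and Lcp1 had a mean too low for analysis, and no cause was tested.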
